A study of Caenorhabditis elegans with 6 samples.

Results

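The regions described here are the HAM-1 binding regions on chromosome V of Caenorhabditis elegans, taken as every region of the authors' combined list placed on that chromosome. There were 1249 of them among 8430 combined regions, or 14.8%, on a chromosome that made up 20.9% of the nuclear span. The lists of the 3 single ChIP replicates held 4421, 4480 and 4548 regions on V, of 30000, 30000 and 29621 regions in all. The study mapped HAM-1 in hermaphrodites at the L4 stage, the last larval stage, by ChIP-seq, which sequences DNA pulled down with a protein. It made 3 ChIP and 3 input libraries, all from 1 strain, OP102, whose background is unc-119(ed3) and which carries the transgene wgIs102: ham-1 fused to TY1, EGFP and FLAG tags, beside a functional unc-119(+) gene. Per the labels the transgene was introduced by biolistic transformation and the strain was not outcrossed, culture was at 20 °C with HB101 as food, fixation used 2% formaldehyde, and input was 10% of the lysate. Chromatin was pulled down from lysates of entire worms with an antibody against GFP, so the lists cover all cells that make the tagged protein from its transgene. A line without the transgene was not analysed here. The input libraries were not analysed here.

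HAM-1 is a protein with a winged-helix domain, a fold that many DNA-binding proteins share, and is known for its part in asymmetric divisions of neuroblasts, in which 1 daughter cell becomes a neuron and its sister may die. An autosome of this worm has a central part rich in conserved and broadly used genes, and outer parts, the arms, with more recombination, more repeats and more silent chromatin. Chromosome V is the longest, and its arms are known for clustered gene families, such as those of the chemoreceptors. The genes under the regions were not analysed here, and no sequence is shown, because the coordinates are on genome build WS220 and no genome or annotation of that build was used.

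Each region carries a number in its name, which runs from 1 in each list and is called its place below. It was taken here as the order of strength, with 1 the strongest, though no source used here states this. On V the place and the deposited score had a Spearman rho across regions of -0.85 in the combined list and -0.993 to -0.997 in the replicate lists. The score has no stated unit and stops at a highest value that 798 of the 1249 regions on V share. All of the first 5414 combined places hold that value, so the score does not order the top of the list, and what is said of strong regions rests on the place alone. A region counts as met by another list where at least 1 bp is shared. Reads per region are not part of these files, and the depth of each library is unknown. Nothing in the labels says that the replicates were separate cultures, so the spread between them may be technical. Intervals given for shares cover counting error alone and treat regions as independent, which neighbours need not be.

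The first question was how densely V was bound. V held 59.7 combined regions per Mb, against 90.6 per Mb on the other 5 nuclear chromosomes together, a ratio of 0.660. The single other chromosomes had 69.7 (IV) to 108 (III) per Mb, so V was the sparsest of the 6. In the replicate lists V had 211, 214 and 218 regions per Mb, against 322, 322 and 316 on the others, with ratios of 0.656, 0.666 and 0.689. The mean log2 ratio was -0.58 ± 0.035 (SD, n = 3 lists), lower on V in 3 of 3 lists. An exact two-sided sign-flip permutation test over the 3 lists gave p = 0.25, which is the smallest p that 3 lists allow (adjusted p = 0.32 over 9 comparisons of V with the rest). This test cannot pass a threshold of 0.05 with 3 lists, and a direction shared by all 3 lists is given as a description.

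Merged into separate stretches, the combined regions of V formed 1165 stretches, which covered 0.482 Mb or 2.30% of V. The other chromosomes ranged from 2.68% (IV) to 4.16% (III) covered. In 83 of the stretches on V more than 1 region lay together. Some combined regions repeat: 26 regions on V had the same start and end as another region, at 13 distinct positions, with different places.

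The second question was where along V the regions lay. With V cut into 3 equal parts of 6.97 Mb by region midpoint, the left part held 358 combined regions, the right part 262 and the central part 629. This is 51.4 per Mb on the left, 37.6 on the right and 90.3 in the centre. The left part therefore had 0.569 times the density of the centre and the right part 0.417 times, and the left part had 1.37 times that of the right. Central densities of the other chromosomes ran from 83.4 (IV) to 130.3 per Mb (III), so that the centre of V, too, was below those of 4 of the other 5.

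The replicate lists gave the same order of the parts with weaker contrasts. Left, right and central densities were 196, 170 and 269 per Mb in replicate 1. In replicate 2 they were 193, 182 and 267 per Mb. In replicate 3 they were 197, 172 and 283 per Mb. Each outer value was below each central value, with no overlap between lists. The ratio of left to centre was 0.716 ± 0.017 and that of right to centre 0.641 ± 0.038 (SD, n = 3 lists), and left over right was 1.12 ± 0.051. Each of these 3 contrasts had the same direction in 3 of 3 lists (exact sign-flip permutation p = 0.25 and adjusted p = 0.25 for each, the smallest possible). With the centre taken instead as 25% to 75% of the length, left over right was 1.03 in the replicate lists and the lists did not share a direction (exact sign-flip permutation p = 0.75).

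**Figure D1:**
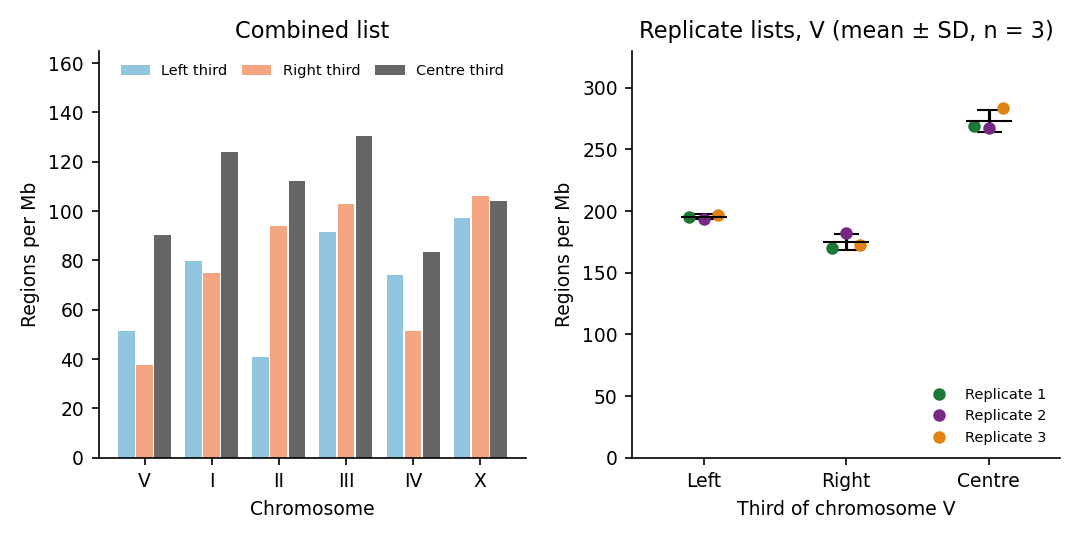
Left panel: combined regions per Mb in the left, right and central part of each chromosome, cut into 3 equal parts (bars). Right panel: regions per Mb in each of these parts of V in the 3 replicate lists (points), with the mean (long line) and SD (whiskers). On V the combined list had 51.4, 37.6 and 90.3 regions per Mb in the left, right and central part, and every replicate list was also highest in the centre.

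Other chromosomes were set beside V for the same contrast. In the combined list the right part of V had the lowest ratio to the centre of the 6, 0.417 against 0.603 (I) to 1.02 (X). The left part of V, at 0.569, was above that of II at 0.366 and below the other 4, at 0.645 (I) to 0.932 (X). Over the other 5 chromosomes pooled, the ratios were 0.704 on the left and 0.778 on the right. In the replicate lists the right-to-centre ratio was 0.641 ± 0.038 on V and 0.881 ± 0.042 on the others (SD, n = 3 lists), and the left-to-centre ratio was 0.716 ± 0.017 on V and 0.861 ± 0.052 on the others. V was lower in 3 of 3 lists for both (exact sign-flip permutation p = 0.25, adjusted p = 0.32). This comparison was added after the data were seen.

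A finer cut showed that the outer parts were not evenly sparse. V was divided into 20 equal parts of 1.05 Mb, numbered from the left end. The left end began at 52.6 combined regions per Mb in part 1, and density was 24.9 and 23.0 per Mb in parts 3 and 4. It was 88.02 per Mb in part 6. The highest value was 124 per Mb in part 12, right of the middle. Parts 16 and 17 were lowest, with 15.3 and 11.5 per Mb, or 16 and 12 regions. At the right end, part 20 had 64.1 per Mb. Between the highest and lowest part the combined count differed 10.8-fold. Both ends of V were thus denser than the troughs next to them, and a split into outer parts and centre alone does not describe this profile.

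The 3 replicate lists followed one profile. Part 12 had 388, 395 and 401 regions in replicates 1, 2 and 3, and part 17 had 59, 60 and 80. The mean count differed 5.95-fold between these parts. The SD between replicates was at most 17.9% of the mean in any part, with a median of 6.65%. Spearman's rho of the 20 counts was 0.95, 0.92 and 0.91 for the 3 pairs of lists; the parts lie next to each other on 1 chromosome, and no p is given. Relative to the mean, the replicates differed most in part 17, where replicate 3 was highest. By number of regions, the replicates differed most in parts 18 to 20, at the right end. In part 18 they had 199, 211 and 160 regions and in part 20 they had 299, 311 and 254, with replicate 3 lowest in both. In part 19 they had 208, 263 and 217, with replicate 2 apart from the others.

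**Figure D2:**
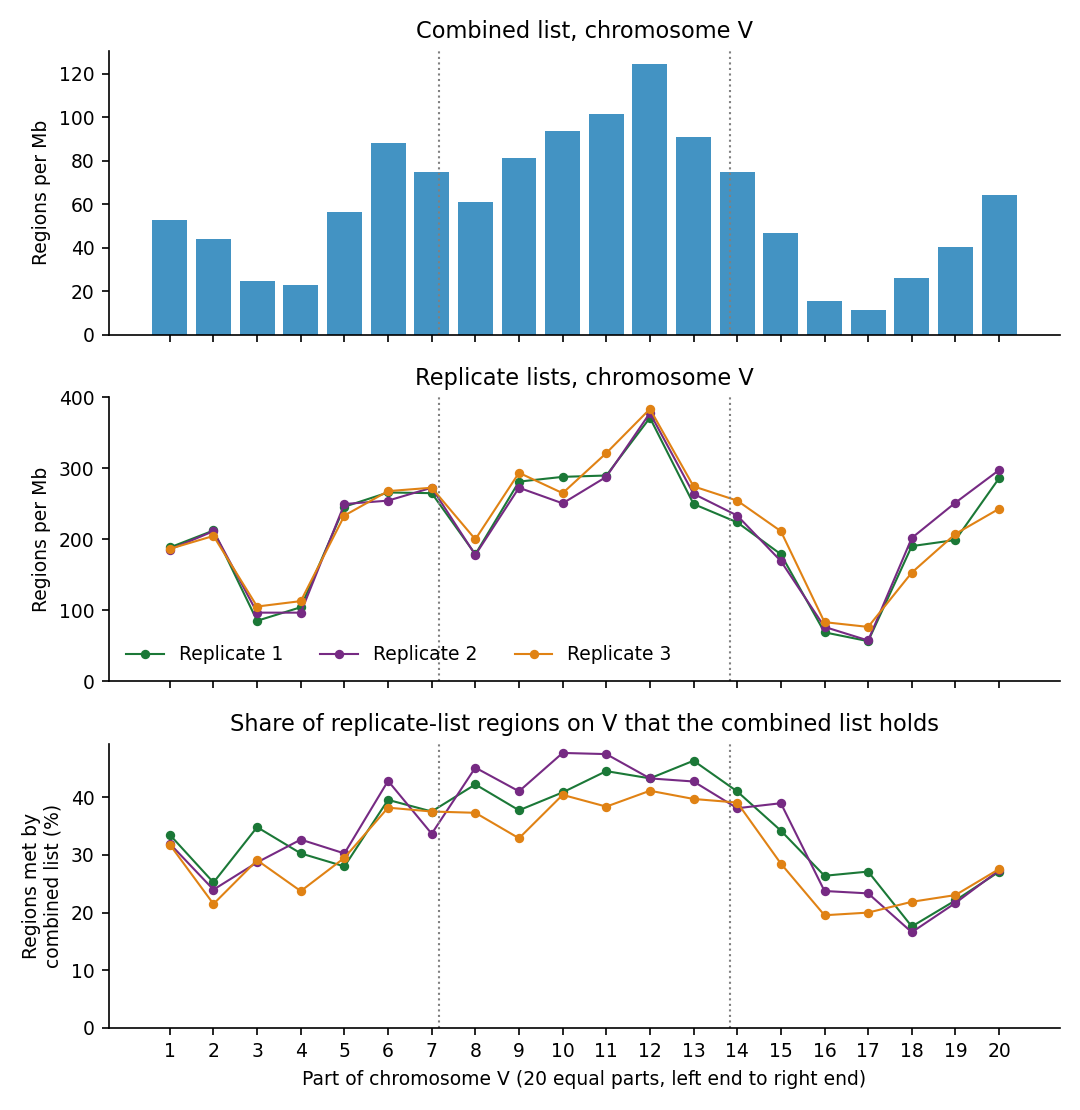
Chromosome V in 20 equal parts from the left to the right end, with dotted lines between the left, central and right part. Top: combined regions per Mb. Middle: regions per Mb in each replicate list. Bottom: percent of each replicate list's regions that the combined list meets. Density dips at parts 3 to 4 and 16 to 17, peaks at part 12 with 124 combined regions per Mb, and is higher again at both ends.

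The third question was whether V had wider spacing throughout or long empty stretches. Of 419 windows of 50 kb on V, 137 held no combined region, or 32.7% (95% Wilson interval 28.4 to 37.3%), where the share over all 6 chromosomes was 17.2%. The other chromosomes ranged from 4.71% (III) to 19.1% (IV), and together had 209 of 1589 windows empty, or 13.2%. On V, 52 of 139 windows on the left were empty (37.4%), 60 of 140 on the right (42.9%) and 25 of 140 in the centre (17.9%). In the replicate lists 19.3%, 17.7% and 10.7% of windows on V were empty, against 4.66%, 4.09% and 2.64% on the others. V had the largest share of empty windows in each of the 4 lists.

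Density was also split into the share of occupied windows and the number of regions in them. Because V had more empty windows, its occupied windows are by construction less thinned than V as a whole. The single other chromosomes held 4.30 (IV) to 5.77 (X) regions per window with at least 1 combined region, so IV was below V. Such windows on V held 4.43 regions on average, against 5.20 on the others together, a ratio of 0.851. The share of windows that were occupied was 67.3% on V and 86.8% on the others, a ratio of 0.775. Their product is the ratio of regions per window, so both fewer occupied windows and fewer regions in each entered the lower density of V against the others together. Windows with 10 or more regions made up 6.21% of V (26 windows) and 10.8% of the others (172 windows).

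Gaps between neighbouring stretches differed mainly at the long end. The median gap was 3816 bp on V, against 3652.5 bp on the others, whose single medians ran from 3421 bp (X) to 3952 bp (IV). On V 19.2% of gaps were 1 kb or shorter, against 18.7% on the others. The 75th percentile of gaps was 16607 bp on V and 12386 bp on the others. Single other chromosomes ran from 10236 bp (X) to 16355 bp (IV), so IV was close to V. Gaps over 100 kb numbered 44 on V, against 60 on the other 5 chromosomes together, where IV had the most with 24. The longest single gap was on II, at 675 kb, against 394 kb on V. The long gaps of V took up 7.29 Mb, or 34.9% of V, against 11.6% of the others' length. Outside such gaps the single other chromosomes had 86.8 (IV) to 113 (III) regions per Mb. V had 91.8 there and the others together 102, a ratio of 0.896. Leaving out long gaps raises density on any sparse chromosome, so this ratio describes V and is no test.

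**Figure D3:**
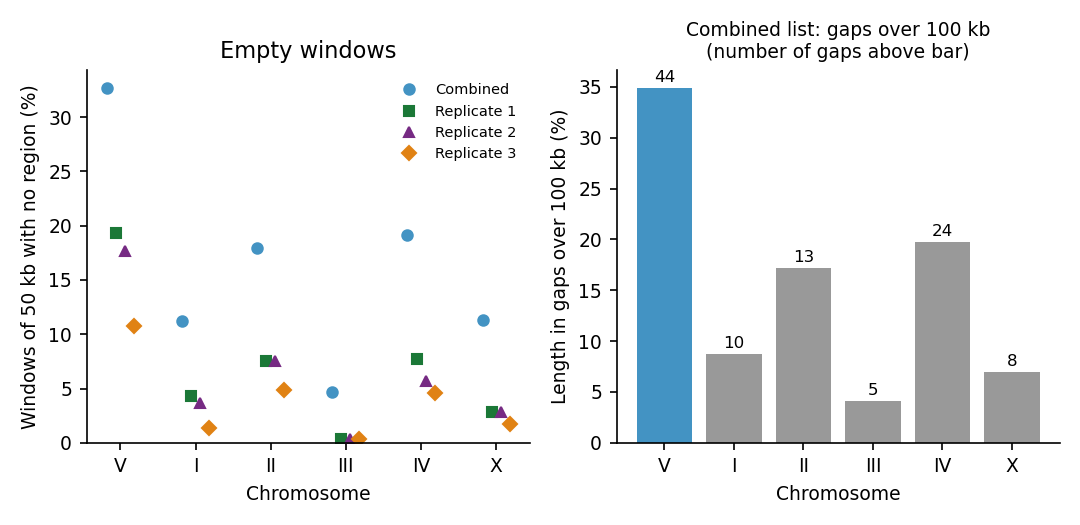
Left panel: percent of 50 kb windows without a region on each chromosome, for the combined list and the 3 replicate lists. Right panel: percent of each chromosome's length in gaps over 100 kb of the combined list, with the number of such gaps above each bar. V was highest in every list, with 32.7% of windows empty in the combined list and 44 long gaps.

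Of the 44 long gaps of V, 14 lay in the left part, 21 in the right and 9 in the centre, where they took up 2.49, 3.62 and 1.18 Mb. The median gap was 4741.5 bp on the left and 5766.5 bp on the right, against 3010.5 bp in the centre. The 5 longest were all in the outer parts, and the replicate lists were not empty there. The longest ran from 17264897 to 17659308 on the right, or 394 kb. Replicates 1, 2 and 3 listed 2, 5 and 12 regions in it, the best at places 7936, 11849 and 8985. Such places lie far down lists of about 30000 regions, and no strong site was listed in that stretch.

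The next longest ran from 3777318 to 4143176 on the left, or 366 kb. It held 21, 22 and 35 regions in replicates 1, 2 and 3, the best at places 2373, 1536 and 1132. The gap from 15192777 to 15511655 on the right, 319 kb long, held 7, 3 and 24 regions with best places of 130, 174 and 490. This stretch is empty in the combined list only, and its best site is described with others of that kind below. The gap from 2875855 to 3193098 on the left, 317 kb long, held 1, 2 and 5 regions, none better than place 15449. The last of the 5, from 16040758 to 16350974 on the right, 310.2 kb long, held 11, 22 and 22 regions with best places of 8023, 2741 and 7704. Replicate 3 had the most regions in 4 of these 5 stretches and as many as replicate 2 in the other.

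Over all 44 long gaps, the replicate lists held 393, 389 and 495 regions of V in replicates 1, 2 and 3. This is 58.4 ± 8.24 per Mb inside the gaps, against 298 ± 2.33 per Mb on the rest of V (SD, n = 3 lists). Their median place was 20057, 20241 and 18742, against 14212, 14109 and 14163 outside the gaps. Of the regions inside the gaps, 35.9%, 35.5% and 28.1% were met by both other replicate lists, against 60.1%, 60.6% and 59.5% outside. The gaps were defined by the combined list, nearly all of whose regions are met by all 3 replicate lists, so these values are not independent of how the gaps were chosen and are given as a description. Long gaps on the other chromosomes had 72.7 ± 9.44 regions per Mb and 30.6% ± 3.46 met by both other lists (SD, n = 3 lists). In each list the density inside gaps was thus lower on V, and the share met by both others was higher on V. Outside their gaps the other chromosomes were also denser than V, with 352 ± 5.04 regions per Mb.

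Dense windows were found as well. The densest 50 kb window of V, from 6200001 to 6250000 in the left part, held 21 combined regions in 19 stretches, which covered 17.6% of it. The replicate lists had 34, 38 and 42 regions there. The next, from 10850001 to 10900000 in the centre, held 17 regions in 17 stretches, and 45, 43 and 41 in the replicate lists. The remaining 3 of the first 5 each held 14 regions. The window from 6000001 to 6050000, on the left, had 43, 46 and 47 replicate regions. The central window from 9500001 to 9550000 had 21, 23 and 18. That from 13650001 to 13700000, also central, had 27, 25 and 29. None of the 5 lay in the right part, where no window held more than 12.

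Density and strength did not go together in a simple way inside these windows. The window from 9500001 held the strongest region of V, at place 34, and yet its 14 regions had a median place of 4636, against 4352 over all of V. Of the 21 regions in the densest window, 3 stood within the first 1000 places, and the best was at place 97. The window from 13650001 had the strongest middle, with a median place of 2951 and 4 of 14 regions within the first 1000.

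The fourth question was how strong the regions of V were. V took 127 of the first 1000 combined places, and so 10.2% of its 1249 regions stood there (95% Wilson interval 8.61 to 11.97%). Over all nuclear regions 11.9% did, and 12.2% of those on the other chromosomes, which ran from 11.05% (II) to 12.8% (I). Within V the shares were 7.82% on the left (28 regions), 11.8% on the right (31) and 10.8% in the centre (68), with Wilson intervals of 5.47 to 11.1%, 8.46 to 16.3% and 8.62 to 13.5% that overlap. Within the combined list the right part, the sparsest by number, was therefore not short of strong sites among those it had. The replicate lists differed: 2.63% ± 0.30 of their regions on the right stood in the first 1000 places. This compares with 2.20% ± 0.15 on the left, 3.37% ± 0.30 in the centre and 3.43% ± 0.04 on the other chromosomes (SD, n = 3 lists). The median combined place was 4304 on the left, 4129 on the right and 4501 in the centre.

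At the very top V was thinner. It held 20 of the first 250 combined places, that is 1.601% of its regions, where 2.97% of all combined regions stood there. As a share of the first 250 this is 8.0% (95% Wilson interval 5.24 to 12.03%), against 14.8% of the whole list. V made up 12.7% at 1000 places, 13.35% at 2000 and 14.1% at 4000, coming up to the level of the whole list. In the replicate lists V had 22 of the nuclear regions in the first 250 places of each, or 8.84%, 8.84% and 8.98%, against 14.8%, 14.9% and 15.4% of the whole lists. In the first 1000 places it had 132, 126 and 120 regions, or 13.2%, 12.6% and 12.1%. The shortfall against the whole list averaged -6.14 ± 0.24 percentage points in the first 250 and -2.37 ± 0.85 in the first 1000 (SD, n = 3 lists), with 3 of 3 lists below (exact sign-flip permutation p = 0.25, adjusted p = 0.32 for each). The shortfall at the top of the combined list was already known when this comparison was chosen. In the first 1000 places it was not particular to V, as II was also low. There, 2.99%, 2.90% and 3.10% of the replicate regions on II stood in those places. This compares with 2.99%, 2.81% and 2.64% on V, and 3.39%, 3.42% and 3.47% on the other 5 chromosomes together, II included.

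**Figure D4:**
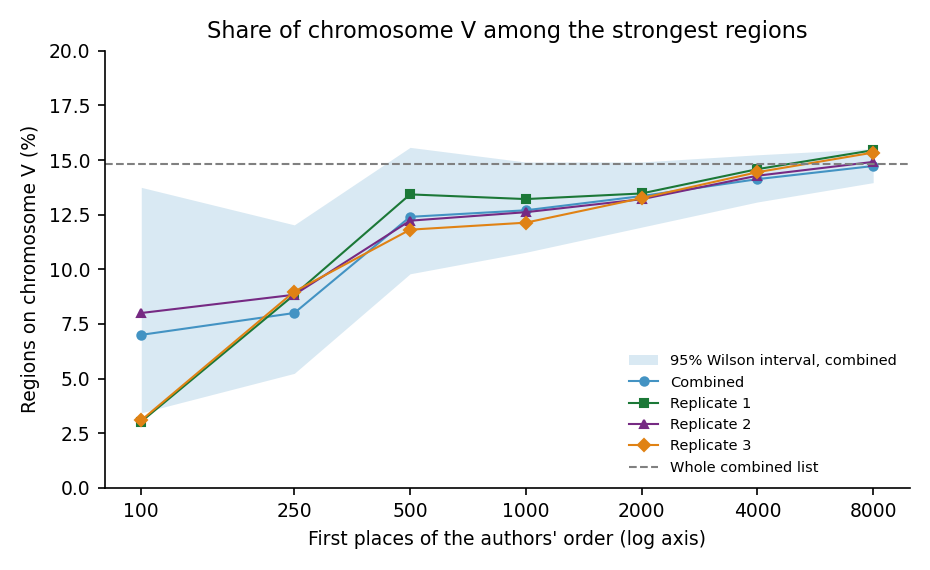
Percent of regions on chromosome V among the first places of each list (log axis), for the combined list with its 95% Wilson interval (shaded) and the 3 replicate lists; the dashed line is the share of V in the whole combined list. The share is 8.0% in the first 250 combined places and 14.1% in the first 4000.

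The strongest region of V ran from 9546774 to 9547249 in the centre, was 476 bp wide and stood at combined place 34. It held places 37, 31 and 38 in replicates 1, 2 and 3. Each of the other 5 chromosomes had a better first place, from 1 on III to 22 on I. Its nearest neighbour in the list was 291 bp away, and 8 other combined regions had midpoints within 25 kb. The next strongest, from 1151255 to 1151744 near the left end, stood at place 38, with replicate places 32, 45 and 45. No other of the 10 strongest was at place 50 or better in every replicate list.

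Others of the 10 strongest were less evenly placed. The region from 10897108 to 10897538, at combined place 64, had replicate places 176, 44 and 115. That from 9343932 to 9344587, at place 69, had 71, 75 and 109. On the right, the region from 18967642 to 18967990 at place 80 had 106, 79 and 88. It lay 9797 bp from its nearest neighbour and was the most isolated of the 10. The region from 14685554 to 14686000, also on the right, at place 85, had 112, 55 and 219.

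The widest difference belonged to the region from 6224258 to 6224985, at combined place 97, in the densest window of V. It stood at places 155, 43 and 392 in replicates 1, 2 and 3, a 9.12-fold difference between the best and the worst. Central regions from 10965504 to 10965853 and from 11979871 to 11980210, at places 121 and 123, had replicate places 122, 178 and 124, and 104, 180 and 112. The tenth, from 6267440 to 6267790 on the left, at place 129, had 132, 86 and 342. It lies a little to the right of the densest window, and here, too, replicate 2 gave the best place and replicate 3 the worst.

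The strongest 5 of each part show that strong sites reached into the outer parts. On the left, after the 3 named above, came the regions from 5684577 to 5684911 at place 211 and from 5790868 to 5791223 at place 227. Replicate places were 148, 320 and 278 for the first of these and 194, 211 and 467 for the other. On the right, after those at places 80 and 85, came regions from 17951148 to 17951612 at place 188, from 15002110 to 15002448 at place 192 and from 14200068 to 14200486 at place 209. The first of these had replicate places 219, 222 and 101, and was listed higher in replicate 3 than in the others. The other pair had 133, 208 and 472, and 177, 226 and 343, lowest in replicate 3.

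Of the 25 strongest regions of V, 6 were on the left, 8 on the right and 11 in the centre. All 25 were met by every replicate list, at place 673 or better. Their best replicate place differed from their worst by a median factor of 2.20. Replicate 3 alone gave the worst place for 12 of them, replicate 2 for 9 and replicate 1 for 3, and in 1 region replicates 2 and 3 tied. The combined and replicate lists are not independent of each other, so these places are a description.

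**Figure D5:**
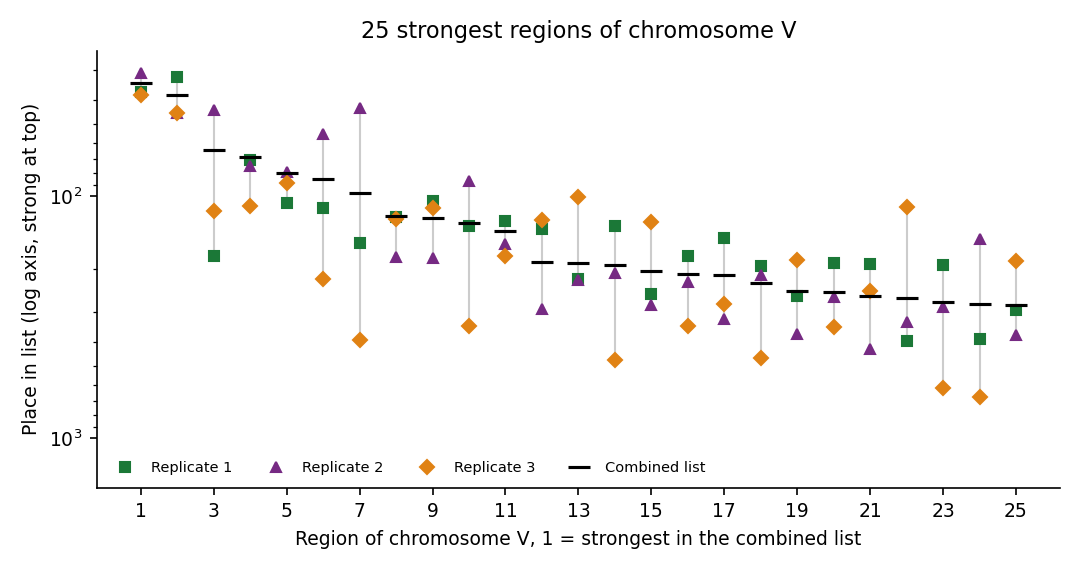
Places of the 25 strongest regions of chromosome V in the 3 replicate lists (symbols) and in the combined list (dashes); the place is on a log axis with strong sites at the top, and grey lines join the best and worst replicate. The first region stood at 37, 31 and 38, while the seventh ranged from 43 to 392.

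The fifth question was how wide the regions were. The median width was 460 bp on V and 460 bp on the others in the combined list, because 66.2% of the regions on V and 63.7% of the others had exactly that width. On V 30.1% were narrower and 3.68% wider, against 30.7% and 5.61% on the others. Wider regions were 6.15% of the left part (22 regions), 2.67% of the right (7) and 2.70% of the centre (17). Widths ran from 115 to 1535 bp on V. In each replicate list the medians of V and of the others were equal, at 460, 476 and 444 bp.

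Among strong regions V was slightly narrower than the others together. In the first 1000 combined places the median width was 339 bp on V (127 regions) and 364 bp on the others (873 regions). In the replicate lists the first 1000 places gave 254, 264.5 and 252.5 bp on V, against 276, 284 and 270 bp on the others. The difference was -19.7 ± 2.25 bp (SD, n = 3 lists), narrower on V in 3 of 3 lists (exact sign-flip permutation p = 0.25, adjusted p = 0.32). Single chromosomes varied: IV was close to V, with 256, 269 and 250 bp, and X was widest, with 298, 302 and 305 bp. In replicate 3 both III, at 245 bp, and IV were narrower than V. In the combined list each other chromosome was wider than V, from 350 bp (II) to 377.5 bp (X). At combined places 1001 to 2000 the medians were 248.5 bp on V and 246 bp on the others, so the difference did not go on down the list.

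The 5 widest regions of V were mostly strong ones. The widest, from 723887 to 725421 on the left and 1535 bp wide, is listed at 2 combined places, 450 and 6692, with the same coordinates. Its best replicate places were 429, 231 and 721. The next, from 20162167 to 20163355 on the right and 1189 bp wide, is also listed again, at places 2526 and 4730. The region from 9730838 to 9731807 in the centre, 970 bp wide, is listed at places 186 and 482. Regions from 6227233 to 6228095 and from 5049265 to 5050092, both on the left, were 863 and 828 bp wide and stood at places 302 and 971. The first of them lies in the densest window.

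The sixth question was how far the replicate lists shared the regions of V. All 3 lists met 1187 of the 1249 combined regions on V, or 95.04% (95% Wilson interval 93.7 to 96.1%), where 96.3% of all nuclear combined regions were met. The share was 96.5% on the others (95% Wilson interval 96.02 to 96.9%), and each other chromosome was above V, from 96.03% (II) to 97.3% (I). Each of the 62 regions not met by all 3 lists was missing from 1 list alone: replicate 3 lacked 36 of them, replicate 2 lacked 23 and replicate 1 lacked 3. They were 21 on the left, 12 on the right and 29 in the centre. They were weak, with a median place of 7328. The strongest were those from 9692274 to 9692520 at place 1587 and from 5329745 to 5329957 at place 1976, both absent from replicate 2.

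Of the replicate lists' own regions on V, 57.9%, 58.4% and 56.1% were met by both other lists, against 58.8%, 59.7% and 59.04% on the others. The difference was -1.69 ± 1.11 percentage points (SD, n = 3 lists), lower on V in 3 of 3 lists (exact sign-flip permutation p = 0.25, adjusted p = 0.32). It was -0.89 percentage points without replicate 3. Without replicate 2 it was -1.13, and the 2 remaining lists had opposite directions (exact sign-flip permutation p = 1). By single chromosome the mean share was 57.5% on V, 57.3% on I and 58.1% (IV) to 61.4% (X) on the rest, so V was not the lowest. Along V the share was 54.3% ± 0.85 on the left, 52.1% ± 0.87 on the right and 63.3% ± 3.02 in the centre (SD, n = 3 lists). The median place of replicate regions was 15612 ± 494 on the left, 17058 ± 331 on the right and 12957 ± 502 in the centre. In the replicate lists the regions of the outer parts were thus also weaker. The combined list had the opposite order, with median places of 4304 on the left, 4129 on the right and 4501 in the centre.

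Where both lists had the same region, the order was about as alike on V as elsewhere. Spearman's rho of the places across matched regions was 0.73 on V and 0.73 on the others for replicates 1 and 2. It was 0.70 on V and 0.71 on the others for replicates 1 and 3, and 0.70 and 0.71 for replicates 2 and 3. It rests on 2458, 2347 and 2289 matched regions of V. Regions share libraries and are not independent, and no p is given.

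The combined list met 35.4%, 35.6% and 33.2% of the replicate regions on V, where it met 35.2%, 35.5% and 34.7% of all nuclear regions of replicates 1, 2 and 3. The difference between V and the others was -0.43 ± 1.17 percentage points (SD, n = 3 lists), below 0 in replicate 3 alone (exact sign-flip permutation p = 1, adjusted p = 1). In the strongest 50% of the lists it was -1.55 percentage points and below 0 in all 3 (exact sign-flip permutation p = 0.25). Within V the share was 32.0% ± 1.03 on the left, 26.6% ± 0.44 on the right and 41.9% ± 2.66 in the centre (SD, n = 3 lists). Of regions met by both other replicate lists, the combined list had 56.3% ± 0.41 on the left, 49.2% ± 0.82 on the right and 63.9% ± 0.73 in the centre. Part 18, near the right end, was lowest, with 18.7% ± 2.81 of its replicate regions in the combined list, and part 11 highest with 43.5% ± 4.65. Part 18 had 190 replicate regions on average and 27 combined ones.

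A few sites stood high in every replicate list and were not met by the combined list. Of 258 regions of replicate 1 on V at place 3000 or better in every list, 9 were not met, or 3.49% (95% Wilson interval 1.85 to 6.50%). On the other chromosomes this was so for 17 of 1682, or 1.01% (95% Wilson interval 0.632 to 1.61%), and the highest single value was 1.76% on II (5 of 284). The regions are counted from replicate 1, which gives 1 value per chromosome, and the difference was not tested. Of the 9 sites, 4 were on the left, 3 on the right and 2 in the centre.

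The first of the 9, from 15464980 to 15465362, is the best site of the long gap that starts at 15192777, and lay 46294 bp from the nearest combined region. The next, from 3315389 to 3315636 on the left, stood at places 725, 1056 and 412 in replicates 1, 2 and 3, and lay 75434 bp from the nearest combined region. A region from 15085446 to 15085717 on the right stood at 233, 394 and 1060, and was only 1554 bp from one. From 15136838 to 15137007, also on the right, places were 651, 1101 and 2602. Together with the first, these were all 3 such sites of the right part, and they lay near each other.

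The other 5 were spread over V. In the centre, the site from 11521482 to 11521720 stood at 571, 607 and 1388, and that from 13819129 to 13819272 at 1181, 1622 and 1269. On the left, the site from 1743449 to 1743908 stood at 1210, 2276 and 1777. That from 4131498 to 4131957, within the second longest gap, stood at 2373, 1536 and 1132. The last, from 6785198 to 6785389, stood at 872, 1052 and 2498. Why the combined list lacks these sites was not tested.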

How the data were processed

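The authors deposited a region list per ChIP replicate and a combined one, on WormBase build WS220 per the file headers. The source column names SPP, a peak caller, with IDR, which keeps regions of reproducible rank; how reads were aligned, which thresholds applied and how the combined list was made is not given in the sources used here. The deposited score per region has no stated unit. Mitochondrial regions were left out. Chromosome lengths were the highest end in any list. Regions were assigned to parts and windows by midpoint, and overlapping regions were merged for gaps. Order was compared over regions that were each other's strongest overlap. Tests were exact two-sided sign-flip permutations over the 3 replicate lists, with Benjamini-Hochberg adjustment over 3 or 9 comparisons, on code tested on simulated lists. The combined list is 1 list and got no test. Intervals are 95% Wilson intervals.

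The regions, windows and sites named are the 10 strongest of V, the 5 strongest of each part, the 5 densest windows, the 5 longest gaps, the 5 widest regions (identical ones counted once) and sites at place 3000 or better in every replicate list that the combined list does not meet; the best regions that a replicate list lacked were chosen after their values were seen. The members and rules were chosen with earlier results of these data known. Comparisons for the first 250 places, for width in the first 1000 and for the parts of V against other chromosomes were added after the data were seen. Alternatives were merging, stronger parts of the lists, other overlaps, windows and cuts, autosomes alone, the score, and leaving out each replicate. Python 3.11.15, numpy 2.4.6, pandas 2.3.3, scipy 1.17.1 and matplotlib 3.10.9 were used.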

Additional observations from a re-analysis of the deposited data

How the results depend on the processing

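Over 106 alternatives to 16 results, 88 did not reverse direction and stayed within the main value's interval or on its side of the threshold. The sign-flip test cannot cross that threshold with 3 lists or fewer. The other alternatives follow, and where no reason is given the cause was not tested. In the strongest 25% of the combined list, the density ratio of V was 0.603 in place of 0.660, and right over centre was 0.496 in place of 0.417. With the centre taken as 25% to 75% of the length, left over centre was 0.48 in place of 0.569. Of the autosomal regions within the first 1000 places of the full list, V had 16.4%, by construction higher than 12.7%. It had 18.9% of all autosomal regions. Over all 6 nuclear chromosomes it had 8.0% of the first 250 places. Ranked by score with ties kept, the share of V at the top of the replicate lists minus that of the whole lists reversed to 0.021 percentage points, where the highest score alone holds 5285 to 7136 regions per list. Empty windows on V were 50.1% at 25 kb, 14.3% at 100 kb and 44.4% in the strongest 50%, against 30.7%, 3.77% and 22.8% on the others. The width difference in the combined list was 0 bp, and -2 bp in the strongest 50%, -6 bp in the strongest 25% and -25 bp in the first 1000. In the replicate lists it was 0 bp, and -19.7 bp in the first 1000. That change counts among the 88 only because a difference of 0 bp has no direction to reverse. The share of V regions met by all 3 lists was 70.8% with reciprocal overlap of 50%, 88.6% with 200 bp around the midpoint and 98.8% in the strongest 50%, and 95.3% to 97.9% with a replicate left out, where fewer lists must meet a region. The share met by the combined list, V minus others, was -0.43 percentage points, was -1.55 in the strongest 50%, ranged from -0.79 to 0.24 with a replicate left out and reversed at 0.24 without replicate 3. Leaving out a replicate kept 96.8% to 98.6% of the combined regions, which could not be called anew, so it says little about dependence on a replicate. No paired analysis was possible because only ChIP lists were used here, so no 2 groups shared replicate numbers. Unknown read depth limits how far a weak or empty place can be read.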
